A study of Homo sapiens with 12 samples.

Results

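Genes that act from the uptake of glucose to the export of lactate were followed in retinoblastoma cells exposed to THZ1. They were the rows of the deposited count table whose symbol was on a list of 30 names, and all 30 were found among its 27505 features, of which 19974 are Ensembl genes. All 30 passed the filter on low counts, as did 14865 Ensembl genes in all. RNA was sequenced from WERI-Rb-1 (WERI below) and Y79, established human lines grown from retinal tumours, both labelled WT for genotype and kept in the same serum-containing medium. THZ1 is a small molecule that attaches covalently to CDK7, a kinase that acts on RNA polymerase II, and that also hits CDK12 and CDK13. The groups were WERI with 50 nM THZ1, WERI with 0.1% DMSO, Y79 with 50 nM THZ1 and Y79 with 0.1% DMSO. Each exposure lasted 12 h, DMSO is the solvent, and each group had 3 samples (n = 3 for every group value). Nothing in the labels says that the samples of a group were grown separately, so p-values measure only the spread between these samples, which may be technical. A difference between the 2 lines is a difference between these lines only.

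Glycolysis splits glucose into pyruvate in the cytosol and yields ATP and NADH. Carriers of the SLC2A family bring glucose in, kinases trap it and commit it to breakdown, and lactate dehydrogenase turns pyruvate into lactate to restore NAD+. Carriers of the SLC16A family move lactate across the membrane, while pyruvate dehydrogenase kinases hold pyruvate back from the mitochondrion. Retinal photoreceptors, and many tumours, turn much of their glucose into lactate even with oxygen present. The factor HIF1A and the MYC family are known to raise transcription of many of these genes.

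The libraries held 29677575 to 37433574 counts. All 8 retinoblastoma and photoreceptor markers were detected in every group, with summed levels of 2388 to 2498 counts per 1000000 (CPM) in WERI THZ1 libraries, 2727 to 2835 in WERI DMSO, 2475 to 2652 in Y79 THZ1 and 2176 to 2195 in Y79 DMSO. Single markers moved in opposite directions inside these sums. OTX2 had 325 CPM in WERI with THZ1, against 940 with DMSO, and 159 in Y79, against 610. AIPL1 had 897 CPM in WERI with THZ1, against 437 with DMSO, and 1666 in Y79, against 684. The 6 glial and pigment epithelium markers summed to at most 5.89 CPM in any library, and TYR was at 0 in all 4 groups. The 6 fibroblast and vessel markers summed to 53.2 to 55.0 CPM in WERI THZ1 libraries, against 25 to 28.1 in WERI DMSO, and to 3.57 to 4.78 CPM in Y79 THZ1 libraries, against 2.03 to 2.89 in Y79 DMSO. The 5 blood cell markers summed to 5.18 to 8.90 CPM in WERI THZ1 libraries, against 1.71 to 3.11 in WERI DMSO, and to 26.5 to 43.4 CPM in Y79 THZ1 libraries, against 8.65 to 11.2 in Y79 DMSO. Most of each of these sums was 1 gene. COL1A1 had 52.4 ± 1.41 CPM in WERI with THZ1, against 24.8 ± 1.42 with DMSO, while the mean of COL1A2, COL3A1, DCN and VWF was at most 0.754 CPM in any group and PECAM1 had 1.17 ± 0.302 CPM in WERI with THZ1, against 1.46 ± 0.205. HBA1 had 28.7 ± 10.1 CPM in Y79 with THZ1, against 8.94 ± 1.04 with DMSO, while the T cell marker CD3E was at 0 in both Y79 groups and PTPRC, a marker of all leukocytes, averaged at most 0.477 CPM in any group. The part of these levels in the results was not tested. Replicate 2 of Y79 with THZ1 stood apart from its group. Its counts differed from those of the other Y79 THZ1 libraries by a chi-square per gene of 72.9 and 74.4, against 7.73 to 13.8 for every other pair of replicates. Values without it are given for several members that it moved. CDK7 mRNA was at 3.00 ± 0.240 CPM in WERI with THZ1, against 11.1 ± 1.13 with DMSO, and at 5.42 ± 0.337 CPM in Y79, against 19.3 ± 0.147.

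After THZ1 the pathway split. The glucose carriers SLC2A1 and SLC2A3, the lactate dehydrogenase subunit LDHA and the carrier SLC16A6 were lower in both lines, while most enzymes between hexokinase and pyruvate, and the other dehydrogenase subunit LDHB, were higher relative to the typical gene. CPM values are scaled by TMM factors, which take the typical gene as unchanged, ± the SD over the 3 samples. Log2 fold changes come from the edgeR quasi-likelihood test with their standard error (SE), and calls are at an adjusted p under 0.05 over all tested features.

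In WERI, 14 of the 30 members were higher after THZ1, 9 were lower and 7 were not called. Of all 14865 tested genes, 27.7% were higher and 37.2% lower in that comparison (64.8% called in either direction), beside 46.7% and 30% of the members. In Y79, 17 members were higher, 11 lower and 2 not called, which is 56.7% and 36.7% of the members, beside 29.9% and 38.5% of all tested genes (68.3% in either direction). The median log2 fold change of the members was 0.31 in WERI and 0.63 in Y79, and that of all tested genes was -0.11 and -0.09. THZ1 and DMSO libraries did not overlap in CPM for 25 members in WERI and 27 in Y79. The same was not counted over all tested genes, so nothing particular to the members is read from it. Called higher in both lines were 13 members, namely GPI, PFKL, PFKM, ALDOA, TPI1, GAPDH, PGK1, PGAM1, ENO1, ENO2, PKM, LDHB and PDK1. Called lower in both lines were 7 members, namely SLC2A1, SLC2A3, HK2, PFKFB4, LDHA, SLC16A6 and HIF1A. SLC16A1 was called in opposite directions in the 2 lines. Calls shared by both lines were not counted over all tested genes, so nothing particular to the members is read from the counts of 13 and 7.

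Most of the falls, and none of the rises, were called under every way of scaling the libraries, a split that the scalings themselves favour. The 13 mitochondrially encoded mRNAs, made by a separate polymerase of the mitochondrion, took 10.6% ± 0.726 of counts in WERI with THZ1, against 3.87% ± 0.111 with DMSO, and 9.28% ± 0.729 in Y79, against 4.2% ± 0.262. When libraries were scaled to those mRNAs, the median log2 fold change of all genes was -2.01 in WERI and -1.80 in Y79, and with library size alone it was -0.56 and -0.65. Relative to TMM both scalings move all genes down, so falls of any gene tend to stay called and rises to be lost. Scaled to mitochondrial mRNAs, 111 of all tested genes were called higher and 13328 lower in WERI, and 283 and 12188 in Y79. How many of all genes kept a call under every scaling was not counted. Under 4 scalings (TMM, RLE, library size alone and mitochondrial mRNAs), no member was called higher throughout in either line. Under all 4, HIF1A, HK2, LDHA, PFKFB4, SLC16A1, SLC16A6, SLC2A1 and SLC2A3 were called lower in WERI, and BNIP3, HIF1A, HK2, LDHA, PDK3, PFKFB3, PFKFB4, SLC16A6, SLC2A1 and SLC2A3 in Y79. A change of scaling shifts all genes and their median almost equally, so the place of a member beside that median is fixed in advance. Under each of the 4, 20 members lay above it in WERI and 10 below, and 19 and 11 in Y79. A rise below therefore means a rise relative to the typical gene, and an absolute change per cell was not measured. Fewer cells holding a transcript and less of it per cell cannot be told apart in these bulk samples.

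**Figure D1:**
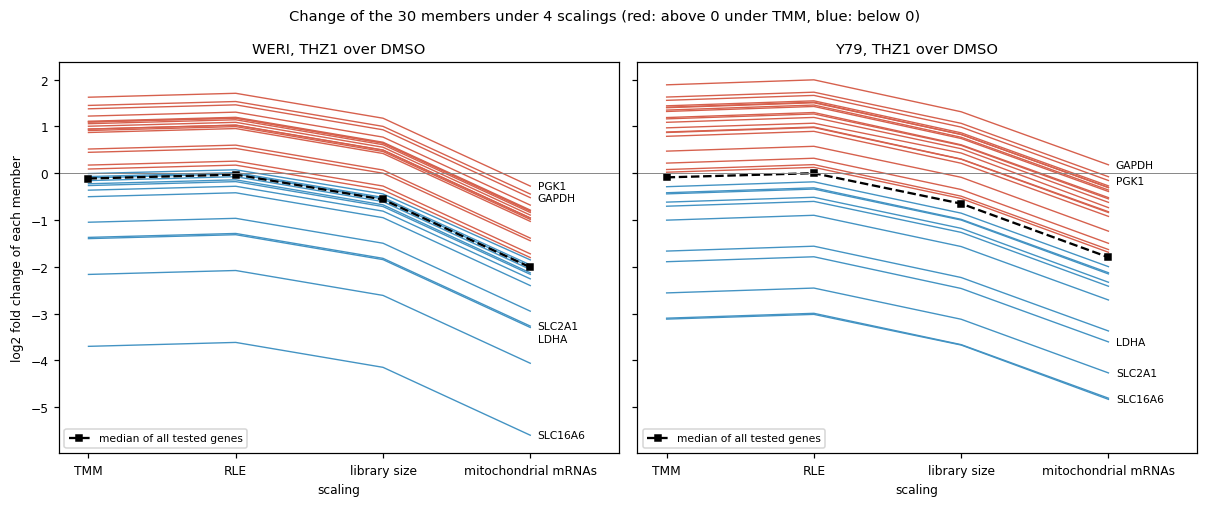
Log2 fold change (THZ1 over DMSO) of each of the 30 members under 4 ways of scaling the libraries, for WERI (left) and Y79 (right), with the median of all tested genes as a dashed line. The lines run nearly parallel to that median; under mitochondrial scaling all 30 members lie below 0 in WERI, and in Y79 GAPDH alone lies above it, at 0.18.

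Both glucose carriers among the members fell in both lines. SLC2A1 encodes GLUT1, the main glucose carrier of many cells and of the blood-retina barrier, and lies on chromosome 1 (42925375 to 42959176, minus strand, GRCh38; ENSG00000117394). Its level was 47.2, 45.7 and 43.0 CPM in WERI THZ1 libraries, against 114, 121 and 116 CPM in WERI DMSO. In Y79 it was 12.3, 14.7 and 16.9 CPM with THZ1, against 81.6, 86.7 and 89.9 CPM with DMSO. The groups stood far apart in both lines, a 2.59-fold fall in WERI (log2 fold change -1.37 ± 0.093, adjusted p = 2.17e-08) and a 5.89-fold fall in Y79 (-2.56 ± 0.100, adjusted p = 1.27e-10). The fall was larger in Y79 by 1.19 on the log2 scale (Y79 minus WERI, -1.19 ± 0.133, adjusted p = 7.35e-05).

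SLC2A3 encodes GLUT3, a carrier with high affinity for glucose that is typical of neurons (chromosome 12, 7919230 to 7936275, minus strand; ENSG00000059804). It had 6.92, 6.47 and 6.11 CPM in WERI THZ1 libraries, against 29.2, 27.7 and 30.5 CPM in WERI DMSO. Y79 THZ1 libraries held 1.62, 1.94 and 1.58 CPM, against 14.4, 14.9 and 14.5 CPM in Y79 DMSO. SLC2A3 thus fell 4.48-fold in WERI (-2.16 ± 0.106, adjusted p = 1.56e-09) and 8.57-fold in Y79 (-3.10 ± 0.121, adjusted p = 1.32e-10), and the log2 difference between the lines was -0.93 ± 0.158 (adjusted p = 0.00125). Its near-identical neighbour SLC2A14 can share reads with it. Over the 3 libraries of a group SLC2A14 had 0 counts with THZ1 in either line, against 5 in WERI DMSO and 58 in Y79 DMSO.

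Between hexokinase and TPI1, 9 members catalyse the steps that trap glucose and split it into triose phosphates. In each line 6 of them were higher, with 2 lower in WERI (HK2, PFKP) and 1 in Y79 (HK2), and under mitochondrial scaling none of the 9 was above 0 in either line. HK2, an inducible hexokinase bound to mitochondria, fell to 134 ± 5.94 CPM in WERI THZ1 samples, against 189 ± 4.07 in DMSO (-0.50 ± 0.068, adjusted p = 1.78e-05). In Y79 it fell to 82.4 ± 6.07 CPM, against 112 ± 4.33 (-0.44 ± 0.068, adjusted p = 5.75e-05). HK1, the housekeeping hexokinase, had a log2 fold change of 0.17 ± 0.070 in WERI (adjusted p = 0.0461) and 0.08 ± 0.070 in Y79 (adjusted p = 0.355). Its Y79 value was -0.0172 without replicate 2 of Y79 THZ1. The WERI call for HK1 was lost without any of 5 of the 6 libraries (all but DMSO replicate 2), with adjusted p from 0.094 to 0.174, and its sign turned with library size alone (-0.27). GPI, which turns glucose phosphate into fructose phosphate, was higher by 0.94 ± 0.080 in WERI and 0.87 ± 0.080 in Y79.

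Phosphofructokinase commits sugar to glycolysis, and its 3 subunit genes did not move together. PFKM, the muscle-type subunit (chromosome 12, 48105139 to 48146404, plus strand; ENSG00000152556), had 173, 158 and 174 CPM in WERI THZ1 libraries, against 66.3, 75.5 and 75.2 CPM in DMSO. In Y79 it had 265, 264 and 256 CPM with THZ1, against 128, 119 and 122 CPM with DMSO. All THZ1 libraries lay above all DMSO libraries of their line (log2 fold change 1.22 ± 0.070 in WERI and 1.09 ± 0.070 in Y79). PFKL, the liver-type subunit, was higher by 1.06 ± 0.086 and 1.40 ± 0.087. PFKP, the platelet-type subunit, was at -0.16 ± 0.058 in WERI (adjusted p = 0.0297) and 0.02 ± 0.058 in Y79 (adjusted p = 0.789). The WERI call for PFKP was lost without DMSO replicate 2, DMSO replicate 3 or THZ1 replicate 3 (adjusted p from 0.0617 to 0.102). PFKM shares 628 exon bases with SENP1 on the opposite strand, and the library kit does not keep strand, so part of its reads can belong to SENP1.

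Within a library, the share of one gene in its step does not depend on scaling between libraries. Its size does depend on the exon lengths used. The shares below are of CPM per kilobase of annotated exon and were compared by an exact two-sided permutation test, whose smallest p with 3 against 3 libraries is 0.1; over the 34 shares tested such a p adjusts to 0.113, so no share could pass 0.05. PFKP made up 24.1% ± 0.591 of the 3 phosphofructokinase genes in WERI with THZ1, against 43.6% ± 0.952 with DMSO, and 20.1% ± 1.43 in Y79, against 37.3% ± 0.440. PFKL took 44.7% ± 0.888 in WERI with THZ1, against 34.8% ± 1.32 with DMSO, and 48.6% ± 2.52 in Y79, against 34.8% ± 0.841. HK1 made up 45.9% ± 1.38 of the hexokinase pair in WERI with THZ1, against 34.7% ± 0.660 with DMSO, and 56.7% ± 3.68 in Y79, against 47.8% ± 0.0891. None of these shares overlapped between THZ1 and DMSO libraries of a line (exact p = 0.1 each).

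The aldolases and TPI1 follow. ALDOA, the widespread aldolase, had 602 ± 38.6 CPM in WERI with THZ1, against 330 ± 11.2 with DMSO (0.87 ± 0.124), and 1542 ± 354 CPM in Y79, against 606 ± 25.9 (1.35 ± 0.125). ALDOC, the brain-type aldolase, was near absent in WERI, at 1.43, 1.35 and 0.931 CPM with THZ1 and 0.915, 1.61 and 1.39 CPM with DMSO (-0.07 ± 0.260, adjusted p = 0.833). In Y79, ALDOC had 14.3, 22.2 and 16.6 CPM with THZ1, against 10.7, 8.13 and 9.94 CPM with DMSO, and was higher by 0.88 ± 0.215 (adjusted p = 0.00251). The difference of its change between the lines was not called (0.95 ± 0.337, adjusted p = 0.0662). TPI1, which interconverts the triose phosphates, was higher by 1.09 ± 0.131 in WERI and 1.19 ± 0.131 in Y79. Without replicate 2 of Y79 THZ1 the Y79 values of ALDOA, ALDOC and TPI1 were 1.11, 0.66 and 0.94. ALDOA shares 1657 exon bases with AC093512.2 on the same strand, so its counts are uncertain to that extent.

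The 3 PFKFB genes encode enzymes that make and break the sugar phosphate that activates phosphofructokinase, and PFKFB3 and PFKFB2 were the members that differed most between the lines in DMSO. PFKFB3, the isoform with the strongest activating bias, was almost silent in WERI, with 2, 5 and 3 counts in THZ1 libraries and 7, 2 and 6 in DMSO libraries (0.114 ± 0.0506 and 0.114 ± 0.0594 CPM). Counts this low are at the level of the 3 that a count of 0 allows. In Y79 it had 5.30, 6.0 and 6.02 CPM with THZ1, against 18.9, 17.1 and 18.9 CPM with DMSO, a 3.17-fold fall (-1.66 ± 0.190, adjusted p = 2.95e-06). The difference between the lines for PFKFB3, -1.66 ± 0.510 (adjusted p = 0.0456), rests on these few WERI counts and was lost without any 1 of 8 of the 12 libraries, with adjusted p from 0.0563 to 0.308. The 8 were WERI DMSO 2 and 3, WERI THZ1 2 and 3, all of Y79 DMSO and Y79 THZ1 1.

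PFKFB4, a hypoxia-inducible isoform, fell in both lines. It had 6.05, 6.74 and 7.76 CPM in WERI THZ1 libraries, against 13.7, 14.4 and 14.4 CPM in DMSO (-1.05 ± 0.167, adjusted p = 8.53e-05). Y79 THZ1 libraries held 2.67, 3.87 and 4.49 CPM, against 7.34, 6.95 and 7.75 CPM in DMSO (-1.0 ± 0.175, adjusted p = 0.000171). PFKFB2, the heart-type isoform, had 1.22, 1.25 and 1.86 CPM in WERI THZ1 libraries, against 0.727, 1.24 and 1.07 CPM in DMSO (0.52 ± 0.217, adjusted p = 0.0544). In Y79 it had 20.3, 20.1 and 24.0 CPM, against 16.6, 14.8 and 15 CPM (0.47 ± 0.169, adjusted p = 0.0251). PFKFB2 would be called in WERI without DMSO replicate 2 or THZ1 replicate 1 (adjusted p = 0.0270 and 0.0444). Its call in Y79 was lost without DMSO replicate 2, DMSO replicate 3 or THZ1 replicate 3 (adjusted p from 0.0776 to 0.105) and its sign turned with library size alone (-0.09). Within the 3 PFKFB genes, PFKFB2 took 57.7% ± 2.76 in Y79 with THZ1, against 26.6% ± 1.23 with DMSO, while PFKFB3 took 26.0% ± 1.61, against 52.4% ± 0.614 (exact p = 0.1 each). In WERI, PFKFB4 took most of the step in both groups, 87.6% ± 0.999 with THZ1 and 95.2% ± 0.551 with DMSO.

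All 6 members of the last glycolytic steps, from GAPDH to PKM, were higher in both lines relative to the typical gene, and under mitochondrial scaling all were below 0 except GAPDH in Y79. PGK1 encodes the kinase of the first ATP-forming step (chromosome X, 77910739 to 78129296, plus strand; ENSG00000102144). It had 657, 640 and 665 CPM in WERI THZ1 libraries, against 207, 215 and 215 CPM in DMSO, and 976, 1148 and 943 CPM in Y79 THZ1 libraries, against 359, 351 and 333 CPM in DMSO. The rise was 3.08-fold in WERI (1.62 ± 0.080, adjusted p = 1.64e-09) and 2.94-fold in Y79 (1.56 ± 0.080, adjusted p = 1.19e-09), and PGK1 was the member with the largest rise in WERI. Set against the median of all genes, it stood at 1.74 in WERI and at 1.64 to 1.66 in Y79 over the 4 scalings. Scaling between libraries can hardly move such a value.

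GAPDH, the dehydrogenase that forms NADH in glycolysis (chromosome 12, 6533927 to 6538374, plus strand; ENSG00000111640), is often used as a reference gene in PCR assays. It had 2876, 2596 and 2716 CPM in WERI THZ1 libraries, against 1026, 1105 and 1024 CPM in DMSO. Y79 THZ1 libraries held 5706, 7487 and 5714 CPM, against 1714, 1636 and 1757 CPM in DMSO. On the TMM scale GAPDH rose 2.60-fold in WERI (1.38 ± 0.105, adjusted p = 6.96e-08) and 3.70-fold in Y79 (1.89 ± 0.107, adjusted p = 2.79e-09), and relative to mitochondrial mRNAs it was at -0.52 and 0.18. The difference between the lines, 0.51 ± 0.146 (adjusted p = 0.0266), was lost without any 1 of 7 libraries, namely all of WERI DMSO, WERI THZ1 2 and 3, and Y79 DMSO 1 and 2 (adjusted p from 0.0520 to 0.0780). Without replicate 2 of Y79 THZ1 that difference was 0.37 (adjusted p = 0.00051). The annotation names 62 pseudogenes after GAPDH, so reads of this gene could be split or added by the counting.

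PKM encodes pyruvate kinase, which ends glycolysis, and gene counts cannot tell its M1 and M2 splice forms apart (chromosome 15, 72199029 to 72231822, minus strand; ENSG00000067225). It had 5630, 5171 and 5464 CPM in WERI THZ1 libraries, against 2504, 2667 and 2460 CPM in DMSO, and 4139, 5486 and 4041 CPM in Y79 THZ1 libraries, against 1704, 1652 and 1681 CPM in DMSO (1.09 ± 0.108 in WERI and 1.44 ± 0.109 in Y79). PGAM1, the phosphoglycerate mutase, was higher by 1.11 ± 0.097 and 0.79 ± 0.096, and has 13 pseudogenes named after it. The enolases rose side by side, with ENO1, the widespread form, at 0.94 ± 0.109 and 1.32 ± 0.110, and ENO2, the neuronal form, at 1.00 ± 0.065 and 1.16 ± 0.065. ENO1 kept close to its share of the enolase pair, at 77.3% ± 0.340 in WERI with THZ1, against 78.1% ± 0.376 with DMSO (exact p = 0.2), and 78.9% ± 2.26 in Y79, against 77.3% ± 0.521 (exact p = 0.3). These shares overlapped between the groups. Without replicate 2 of Y79 THZ1 the Y79 log2 fold changes of GAPDH, PKM, PGAM1 and ENO1 were 1.72, 1.25, 0.62 and 1.13.

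**Figure D2:**
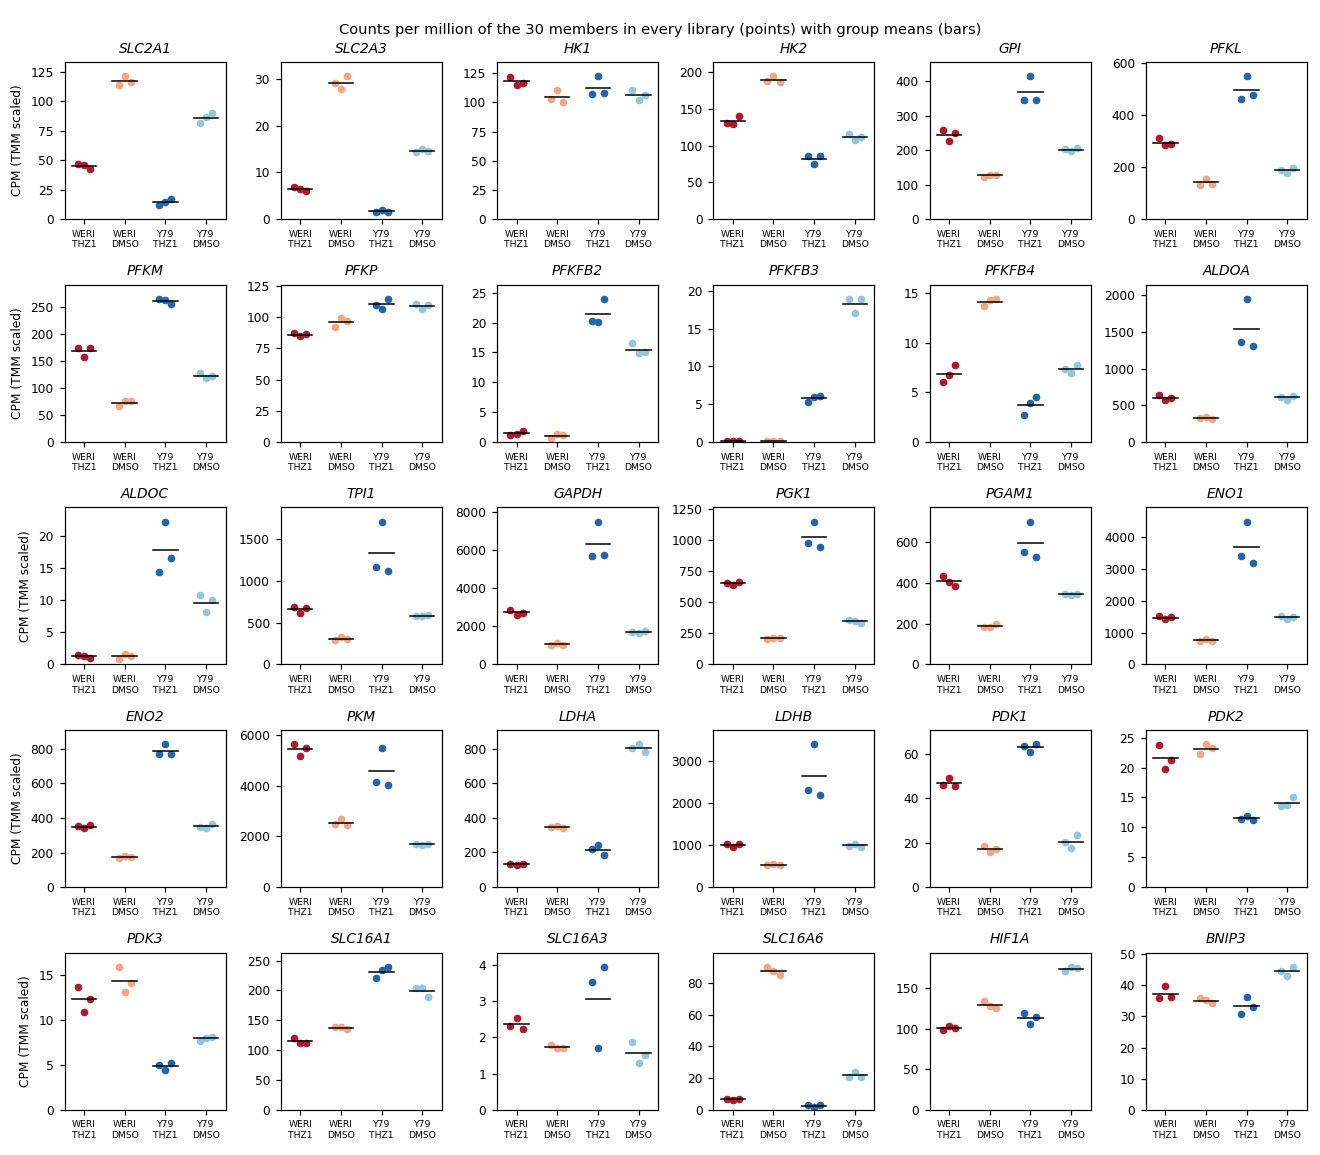
CPM with TMM scaling of each of the 30 members in all 12 libraries, from THZ1 and DMSO samples of WERI (red, orange) and Y79 (dark and light blue), with group means as bars. The THZ1 points lie below the DMSO points for SLC2A1, SLC2A3, HK2, PFKFB4, LDHA, SLC16A6 and HIF1A in both lines, and above them for PGK1, GAPDH, PKM and LDHB, rises that turn round or come to 0.18 at most under mitochondrial scaling; replicate 2 of Y79 THZ1 is the high point for GAPDH and LDHB.

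Lactate dehydrogenase had genes that moved in opposite directions on the TMM scale in both lines. Its tetramers are built from a subunit encoded by LDHA, typical of tissues that make lactate, and one encoded by LDHB, typical of tissues that use it. LDHA (chromosome 11, 18394388 to 18408425, plus strand; ENSG00000134333) had 133, 128 and 134 CPM in WERI THZ1 libraries, against 350, 351 and 342 CPM in DMSO. In Y79 it had 219, 242 and 188 CPM with THZ1, against 802, 826 and 781 CPM with DMSO. LDHA fell 2.64-fold in WERI (-1.40 ± 0.084, adjusted p = 7.6e-09) and 3.71-fold in Y79 (-1.89 ± 0.085, adjusted p = 3.83e-10). The difference between the lines, -0.49 ± 0.116, was called (adjusted p = 0.00954), though not under mitochondrial scaling.

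LDHB (chromosome 12, 21635342 to 21757857, minus strand; ENSG00000111716) had 1031, 963 and 1029 CPM in WERI THZ1 libraries, against 524, 561 and 523 CPM in DMSO. Y79 THZ1 libraries held 2314, 3396 and 2191 CPM, against 984, 1034 and 956 CPM in DMSO. LDHB was higher by 0.91 ± 0.131 in WERI (adjusted p = 3.36e-05) and by 1.41 ± 0.133 in Y79 (adjusted p = 4.09e-07), and below 0 under mitochondrial scaling in both. Without replicate 2 of Y79 THZ1 its Y79 value was 1.15. LDHB shares 997 exon bases with AC010197.2 on the same strand.

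The ratio of LDHA to LDHB counts within a library needs no scaling. It was 0.129, 0.133 and 0.130 in WERI THZ1 libraries, against 0.667, 0.626 and 0.654 in WERI DMSO, and 0.0948, 0.0713 and 0.0858 in Y79 THZ1 libraries, against 0.816, 0.799 and 0.818 in Y79 DMSO. Per kilobase of exon, LDHA made up 5.91% ± 0.0884 of the pair in WERI with THZ1, against 23.8% ± 0.596 with DMSO, and 3.87% ± 0.527 in Y79, against 28.0% ± 0.263. THZ1 and DMSO libraries did not overlap in either line (exact p = 0.1 each). LDHA and LDHB, one falling and one rising, are shown by their promoters, with PGK1 as the largest rise of WERI and SLC2A1 as the glucose carrier that fell. Each run holds 250 bases before and 50 after the RefSeq start (GRCh38.p14), 5′ to 3′ on the gene's strand. Capitals mark ACGTG on either strand (CACGT when read on the other), a motif found in sites of HIF complexes, and CACGTG, the E box, which holds ACGTG on both strands.
LDHA, chr11:18394313-18394612, plus strand: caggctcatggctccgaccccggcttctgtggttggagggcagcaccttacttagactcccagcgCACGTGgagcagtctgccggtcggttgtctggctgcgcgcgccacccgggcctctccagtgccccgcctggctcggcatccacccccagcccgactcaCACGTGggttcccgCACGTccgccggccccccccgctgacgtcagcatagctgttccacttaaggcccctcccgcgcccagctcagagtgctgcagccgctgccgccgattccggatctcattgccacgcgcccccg
LDHB, chr12:21657793-21658092, minus strand: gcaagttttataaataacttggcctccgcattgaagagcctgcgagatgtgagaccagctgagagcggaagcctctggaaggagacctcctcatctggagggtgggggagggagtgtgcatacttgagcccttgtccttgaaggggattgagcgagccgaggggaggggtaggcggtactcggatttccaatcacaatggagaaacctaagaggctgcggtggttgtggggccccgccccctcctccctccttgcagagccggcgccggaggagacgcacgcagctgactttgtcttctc
PGK1, chrX:78103998-78104297, plus strand: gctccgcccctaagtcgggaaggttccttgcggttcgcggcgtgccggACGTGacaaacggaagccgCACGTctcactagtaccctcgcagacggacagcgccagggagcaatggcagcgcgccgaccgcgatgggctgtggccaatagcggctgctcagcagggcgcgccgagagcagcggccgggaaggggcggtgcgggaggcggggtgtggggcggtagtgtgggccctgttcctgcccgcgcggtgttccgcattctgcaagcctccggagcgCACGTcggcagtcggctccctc
SLC2A1, chr1:42958819-42959118, minus strand: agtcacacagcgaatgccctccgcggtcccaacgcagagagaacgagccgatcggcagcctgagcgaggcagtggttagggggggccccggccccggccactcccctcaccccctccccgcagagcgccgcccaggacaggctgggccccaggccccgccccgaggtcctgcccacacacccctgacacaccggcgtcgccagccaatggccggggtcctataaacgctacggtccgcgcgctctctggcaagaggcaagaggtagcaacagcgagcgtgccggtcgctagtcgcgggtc

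The LDHA promoter held 5 matches to ACGTG over both strands, of which 4 came from 2 copies of CACGTG, and that of PGK1 held 3 with no CACGTG. None was found in the windows of LDHB and SLC2A1. Of 26 members with a promoter in the RefSeq table, 10 held ACGTG (38.5%), beside 21.4% of all 35116 promoters and 24.3% of the promoters of tested genes. CACGTG was in 4 of the 26 (15.4%), beside 7.26% and 9.02%. By direction, ACGTG was in 5 of 13 members higher in both lines and in 2 of 5 members lower in both lines that have an entry. For SLC2A3, SLC16A1, SLC16A6 and PFKFB2 no promoter is shown. These matches are a description of letters in a window and not of bound sites.

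**Figure D3:**
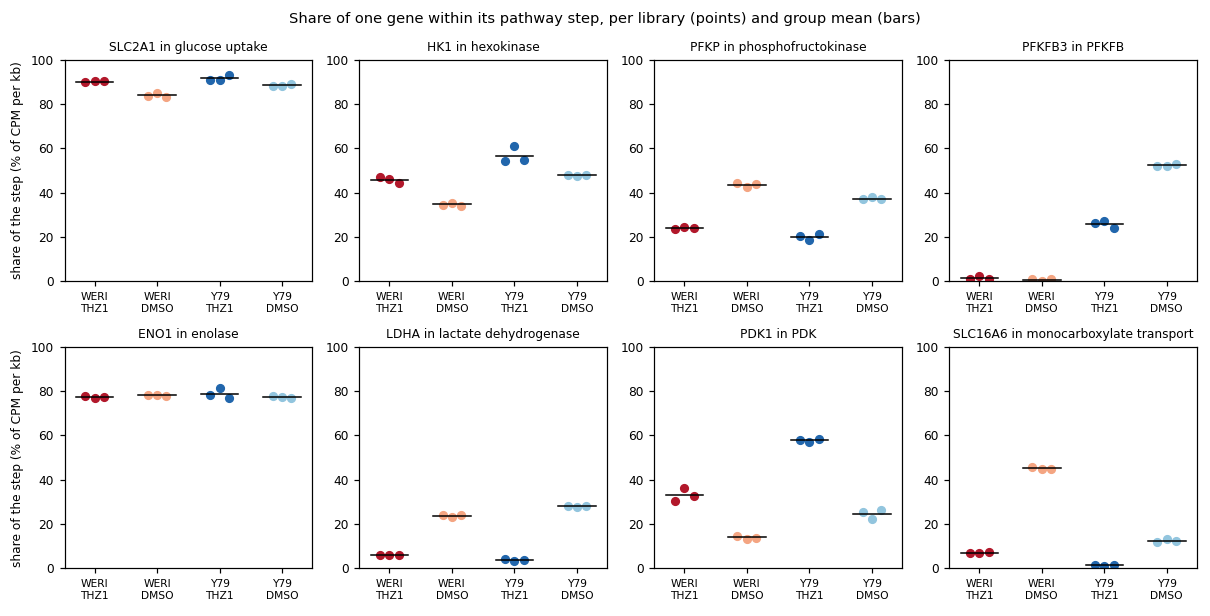
Share of one gene within its pathway step, as a percentage of the summed CPM per kilobase of the members of that step, for every library (points) and the group mean (bars). The LDHA, PFKP and SLC16A6 points with THZ1 lie below those with DMSO in both lines, the PDK1 and HK1 points lie above them, and the ENO1 points overlap.

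Pyruvate dehydrogenase kinases shut the enzyme that carries pyruvate into the citric acid cycle. PDK1, a hypoxia-inducible kinase of this family (chromosome 2, 172555373 to 172608669, plus strand; ENSG00000152256), had 46.2, 49.0 and 45.6 CPM in WERI THZ1 libraries, against 18.6, 16.0 and 17.0 CPM in DMSO. In Y79 it had 63.5, 60.9 and 64.4 CPM with THZ1, against 20.1, 17.5 and 23.5 CPM with DMSO. PDK1 rose 2.73-fold in WERI (1.45 ± 0.102, adjusted p = 3.2e-08) and 3.09-fold in Y79 (1.63 ± 0.102, adjusted p = 7.13e-09), and was at -0.45 and -0.08 under mitochondrial scaling. PDK2, the widespread form, was at -0.10 ± 0.094 in WERI (adjusted p = 0.378) and -0.29 ± 0.097 in Y79 (adjusted p = 0.0183), a call lost without Y79 DMSO replicate 3 (adjusted p = 0.0679). PDK3, an X-linked form, was at -0.23 ± 0.124 in WERI (adjusted p = 0.134) and fell in Y79 (-0.71 ± 0.131, adjusted p = 0.000297). Within the 3 kinases PDK1 took 33.1% ± 2.91 in WERI with THZ1, against 14.0% ± 0.710 with DMSO, and 57.8% ± 0.600 in Y79, against 24.6% ± 2.16, with no overlap (exact p = 0.1 each). PDK2 shares 2113 exon bases with SAMD14 on the opposite strand, so its level is uncertain.

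Among the monocarboxylate carriers, SLC16A6 had the largest fall of all members in WERI. In Y79 its fall was close to that of SLC2A3, and the order of the pair turned without replicate 2 of Y79 THZ1 (-2.96 for SLC16A6 and -3.22 for SLC2A3). It encodes MCT7, a carrier known for ketone body export in zebrafish liver, and lies on chromosome 17 (68267026 to 68291267, minus strand; ENSG00000108932). Its level was 6.96, 6.43 and 6.80 CPM in WERI THZ1 libraries, against 90.3, 87.4 and 84.9 CPM in DMSO, and 2.81, 1.74 and 2.91 CPM in Y79 THZ1 libraries, against 21.0, 24.0 and 20.6 CPM in DMSO. SLC16A6 fell 13-fold in WERI (-3.70 ± 0.131, adjusted p = 1.37e-10) and 8.69-fold in Y79 (-3.12 ± 0.142, adjusted p = 4.18e-10). The smaller fall in Y79 was called (0.58 ± 0.188, adjusted p = 0.0460), but not without any 1 of 10 of the 12 libraries (adjusted p from 0.0697 to 0.112); it held without Y79 DMSO 2 or Y79 THZ1 2.

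SLC16A1 encodes MCT1, the widespread lactate carrier, and moved in opposite directions on the TMM scale. It had 115 ± 4.83 CPM in WERI with THZ1, against 138 ± 1.78 with DMSO (-0.26 ± 0.063, adjusted p = 0.00223), and 231 ± 9.80 CPM in Y79, against 199 ± 8.81 (0.22 ± 0.062, adjusted p = 0.00795). Scaled by library size alone the Y79 value was -0.35, and by mitochondrial mRNAs -1.50. The call was lost without Y79 DMSO replicate 3 (adjusted p = 0.0535). The difference of SLC16A1 between the lines, 0.48 ± 0.089 (adjusted p = 0.00220), was called under all 4 scalings. SLC16A3, which encodes the lactate exporter MCT4 of glycolytic cells, stayed low, at 2.36 ± 0.156 CPM in WERI with THZ1, against 1.73 ± 0.0427 with DMSO (0.45 ± 0.292, adjusted p = 0.207). In Y79 it had 3.53, 1.69 and 3.95 CPM, against 1.88, 1.30 and 1.52 CPM, overlapping groups with a called rise (0.97 ± 0.294, adjusted p = 0.0105) that was lost without Y79 THZ1 replicate 3 (adjusted p = 0.0570). SLC16A1 thus made up 91.8% ± 0.204 of the 3 carriers in WERI with THZ1, against 54.4% ± 0.595 with DMSO, and 97.9% ± 0.658 in Y79, against 87.1% ± 0.696 (exact p = 0.1 each).

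HIF1A encodes the oxygen-regulated subunit of hypoxia-inducible factor and BNIP3, one of its known targets, a mitophagy receptor. HIF1A (chromosome 14, 61695513 to 61748259, plus strand; ENSG00000100644) had 99.1, 103 and 101 CPM in WERI THZ1 libraries, against 135, 129 and 126 CPM in DMSO, and 120, 106 and 115 CPM in Y79 THZ1 libraries, against 172, 177 and 175 CPM in DMSO. It fell in both lines, with a log2 fold change of -0.36 ± 0.063 in WERI (adjusted p = 0.000171) and -0.62 ± 0.063 in Y79 (adjusted p = 8.77e-07). BNIP3 had 37.3 ± 2.08 CPM in WERI with THZ1 and 35.0 ± 0.849 with DMSO (0.09 ± 0.079, adjusted p = 0.353), and fell to 33.4 ± 2.80 CPM in Y79, against 44.6 ± 1.44 (-0.42 ± 0.079, adjusted p = 0.000352). The difference between the lines for BNIP3 was -0.51 ± 0.112 (adjusted p = 0.00663), and 39 pseudogenes carry its name.

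**Figure D4:**
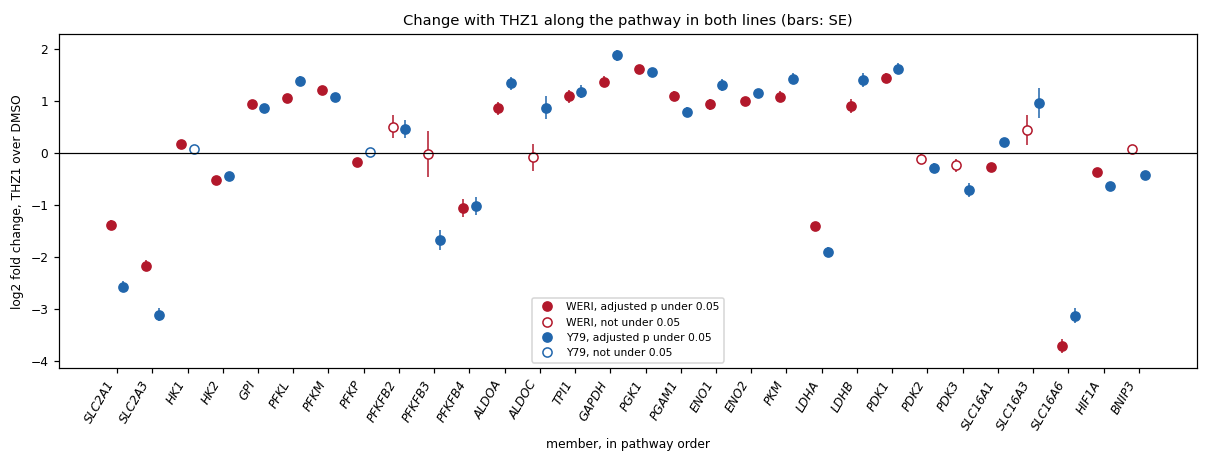
Log2 fold change (THZ1 over DMSO, TMM scale) of the 30 members in pathway order in WERI (red) and Y79 (blue), with bars of the SE; open circles did not reach an adjusted p under 0.05. The enzymes from GPI to PKM mostly lie above 0, rises that turn below 0 under mitochondrial scaling except for GAPDH in Y79, while SLC2A1, SLC2A3, LDHA and SLC16A6 lie furthest below it.

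Levels were ranked between genes per kilobase of annotated exon. That length joins all annotated exons of a gene and can exceed its mRNA, so the ranks are rough. PKM was divided by 8.571 kilobases and GAPDH by 2.981. In CPM, PKM stood above GAPDH in WERI (5422 against 2729 with THZ1, 2544 against 1052 with DMSO). It stood below GAPDH in Y79 (4555 against 6302 with THZ1, 1679 against 1702 with DMSO). Per kilobase GAPDH was the highest member in all 4 groups, at 916 CPM per kilobase in WERI with THZ1, against 353 with DMSO. In Y79 it had 2114 with THZ1, against 571 with DMSO. PKM, LDHB, ENO1 and TPI1 filled the next 4 places in WERI with either exposure. LDHA took place 15 of the 30 in WERI with THZ1, against place 8 with DMSO, and place 13 in Y79 with THZ1, against place 8. SLC2A3 was the lowest member in Y79 with THZ1 (0.28 CPM per kilobase), SLC16A3 the lowest in Y79 with DMSO (0.17), and PFKFB3 the lowest in WERI with either (0.02). Together the 30 members took 1.38% ± 0.0371 of all counts in WERI with THZ1, against 0.983% ± 0.0293 with DMSO, and 1.86% ± 0.164 in Y79, against 1.17% ± 0.00833. GAPDH alone was 25.6% ± 0.392 of the members' counts in Y79 with THZ1, against 16.4% ± 0.442, and PKM 36.4% ± 0.110 in WERI with THZ1, against 32.6% ± 0.318.

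The 2 lines were also set against each other in DMSO, Y79 over WERI. Of the members, 19 were higher in Y79, 8 were lower and 3 were not called (63.3% and 26.7%), beside 32.3% and 32.6% of all tested genes (64.9% in either direction). Their median log2 difference was 0.48, and that of all tested genes 0.00. Y79 and WERI libraries did not overlap for 27 members, a count that was not made over all tested genes and from which nothing is read. The 3 largest differences above 0 were those of PFKFB3 (18.3 ± 1.04 CPM in Y79, against 0.114 ± 0.0594 in WERI, log2 7.27 ± 0.276), PFKFB2 (15.5 ± 0.999 CPM, against 1.01 ± 0.261, log2 3.93 ± 0.201) and ALDOC (9.59 ± 1.33 CPM, against 1.30 ± 0.353, log2 2.88 ± 0.240). The value of PFKFB3 rests on 15 counts over the 3 WERI libraries. LDHA was higher in Y79 by 1.21 ± 0.083 (803 ± 22.0 CPM, against 347 ± 4.99).

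Lower in Y79 were SLC16A6 (-2.00 ± 0.118), at 21.9 ± 1.87 CPM in Y79, against 87.5 ± 2.70 in WERI, SLC2A3 (-0.99 ± 0.101) and PFKFB4 (-0.95 ± 0.165). PKM was the only member of the last glycolytic steps that was lower in Y79 (-0.60 ± 0.107, adjusted p = 0.000253), while the other 5 were higher by 0.69 to 1.02. HK1 (0.02 ± 0.070), PDK1 (0.24 ± 0.101, adjusted p = 0.0502) and SLC16A3 (-0.15 ± 0.292) were not called. Under all 4 scalings 15 members were called higher and 8 lower in Y79. That count was not made over all tested genes, of which mitochondrial scaling by itself called 2706 higher and 6322 lower. The call for PFKP (0.18 ± 0.058, adjusted p = 0.0140) was lost without WERI DMSO 1 or Y79 DMSO 1 (adjusted p = 0.0678 and 0.0512) and turned to -0.10 under mitochondrial scaling.

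**Figure D5:**
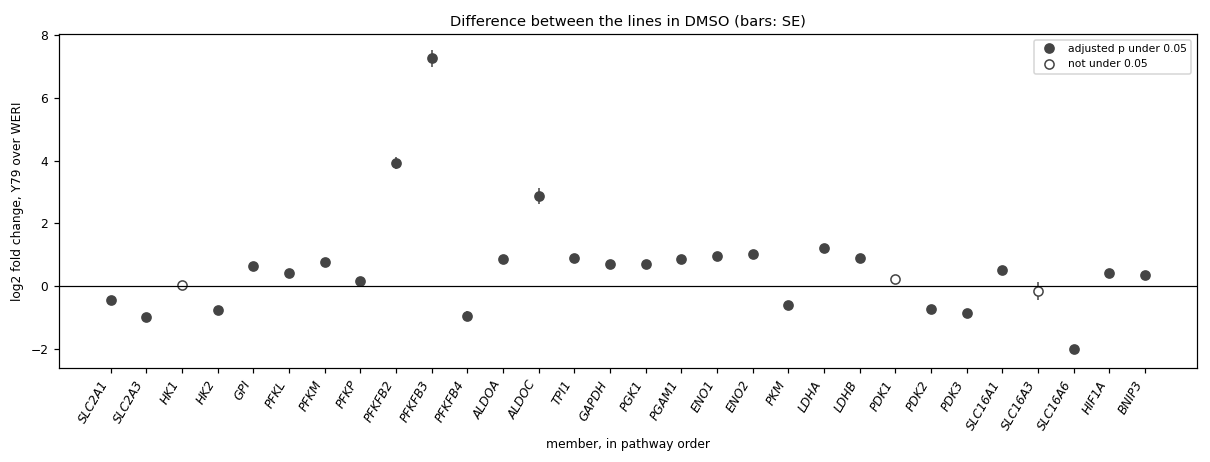
Log2 difference between the lines in DMSO (Y79 over WERI, TMM scale) for the 30 members in pathway order, with bars of the SE; open circles did not reach an adjusted p under 0.05. PFKFB3, PFKFB2 and ALDOC stand out above 0, and SLC16A6 lies lowest at -2.00.

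The change with THZ1 itself differed between the lines (Y79 minus WERI) for 8 members, 3 with a higher value in Y79 (GAPDH, SLC16A1, SLC16A6) and 5 with a lower one (SLC2A1, SLC2A3, PFKFB3, LDHA, BNIP3). That is 10.0% and 16.7% of the members, beside 8.73% and 13.2% of all tested genes (22% in either direction), so the share is near the background. The median difference of the 30 members was 0.05, and that of all genes -0.01. GAPDH, SLC16A1, SLC2A1 and SLC2A3 were called under all 4 scalings. Without replicate 2 of Y79 THZ1, 9 members had a higher and 7 a lower value in Y79. Over all tested genes that fit called 2161 higher and 3031 lower, against 1298 and 1965 with all libraries, so calls were gained well beyond the members. Without WERI DMSO 2 or 3, WERI THZ1 2 or 3, or Y79 DMSO 1, 1 member had a higher value, and without Y79 THZ1 1 or 3, 5 did. The 8 members added without Y79 THZ1 replicate 2 were PFKL (0.26), PFKP (0.20), ALDOA (0.27), ENO1 (0.21), PKM (0.19), LDHB (0.27), PGAM1 (-0.46) and HIF1A (-0.21).

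Genes around the pathway were counted from lists chosen by function, and the THZ1 comparisons are given as log2 fold changes, WERI before Y79 where a pair is given. Their counts stand beside 27.7% higher and 37.2% lower of all tested genes in WERI, and 29.9% and 38.5% in Y79. Nothing particular to a list is read from its count. Of 7 other tested glucose transporters, 2 were higher and 2 lower in WERI, and 2 and 4 in Y79. SLC2A11 was higher by 1.40 and 1.09, and SLC2A6, a lysosomal member of the family, was lower, at -0.93 and -1.93. Of 11 tested other glycolytic isozymes, 2 were higher and 3 lower in WERI, and 1 and 3 in Y79, with MINPP1, an inositol phosphate phosphatase that also acts on bisphosphoglycerate, lower at -1.64 and -1.72, and ENO3, the muscle enolase, higher at 0.90 and 1.70. Of 12 genes for pyruvate entry to mitochondria, 6 were higher and 2 lower in WERI, and 4 and 4 in Y79. Its pyruvate dehydrogenase subunits diverged on the TMM scale, with PDHA1 higher by 1.21 and 1.18, PDHB lower, at -0.95 and -2.04, and DLAT lower, at -0.77 and -1.14.

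Of 8 pentose phosphate genes, 5 were higher and 1 lower in WERI, and 6 and 1 in Y79. TALDO1, a transaldolase, was higher by 1.16 in Y79, and in WERI had 74.0 CPM with THZ1, against 44.9 with DMSO. TIGAR, a phosphatase that slows glycolysis, was lower, at -1.02 and -1.41. Of 9 glycogen genes, 2 were higher and 3 lower in WERI, and 2 and 4 in Y79, with the glycogen synthase GYS1 at -1.06 and -1.59. Of 7 genes of the serine and glycerol branches, 2 were higher and 1 lower in each line, with SHMT2 at 1.00 and 1.07. Of 4 other lactate transport genes, 2 were higher in WERI and 3 in Y79, with none lower. The Y79 count includes EMB, which had 3 counts over the Y79 THZ1 libraries and 0 with DMSO, too few to read as a rise. SLC16A7 had 0 counts in both Y79 groups. BSG, the chaperone that carries MCT1 and MCT4 to the membrane, was higher by 1.74 and 1.99.

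Of 10 regulators of hypoxia-inducible factor, 2 were higher and 6 lower in WERI, and 1 and 7 in Y79. Those include the oxygen-sensing hydroxylases EGLN1 (-1.20 and -1.32) and EGLN2 (-1.44 and -1.85). EGLN3 was at -2.15 in Y79 and low in WERI, at 1.13 CPM with THZ1, against 1.71 with DMSO. ARNT2, a partner of HIF1A, was at -1.13 in WERI. In Y79 ARNT2 had 38.5 CPM with THZ1, against 65.3 with DMSO. Of 11 tested other hypoxia targets, 6 were higher and 1 lower in WERI, and 3 and 4 in Y79, with NDRG1 at 0.86 and 1.01 and KDM3A at -1.35 and -0.99. Of 5 glucose sensing genes, 2 were higher and 2 lower in WERI, and 2 and 1 in Y79. MLXIPL, a glucose-responsive factor, was higher by 1.25 and 1.71, its target TXNIP by 1.04 and 1.48, and MLX, the partner of MLXIPL, was lower, at -1.63 and -1.54. These directions are on the TMM scale, where the median of all genes was -0.11 and -0.09.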

How the data were processed

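Total RNA of 2 retinoblastoma lines was sequenced after 12 h in 50 nM THZ1 or 0.1% DMSO, with 3 samples per group and 12 libraries. Per the labels' protocols, library preparation used a NEBNext Ultra kit, which does not keep strand. Cufflinks and GRCh38 are named per the submitters' processing notes. As to the aligner, the counter and the Cufflinks version, these were not given in the sources used here.

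Whole-number counts were deposited by the authors, unnormalized as far as the values show. Of 27505 features, 7531 are unannotated loci. Totals were 29677575 to 37433574 counts per library. A count of 0 leaves room for 3 counts in a library, at most 0.101 CPM, and such limits cover counting error only.

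The members and lists were chosen with earlier results of these data known. Low counts were removed with filterByExpr (18844 features left, 14865 of them Ensembl genes). The edgeR 4.0.16 quasi-likelihood test (R 4.3.3, TMM factors, robust, two-sided) took all 12 libraries in a model of 4 group means (8 residual degrees of freedom). P-values were adjusted by Benjamini-Hochberg over all tested features in each of the 4 comparisons and called under 0.05. SE is the log2 fold change over the square root of F. Shares within a step use CPM per kilobase of exon union in GENCODE v29 (GRCh38), which also gave the gene positions, and were compared in Python 3.11.15 with scipy 1.17.1. Promoters are from RefSeq (GRCh38.p14), and 26 of 30 members matched. The last 25 bases of 24 of these lie in a GENCODE transcript of the gene, those of PFKP and GAPDH do not. The fit was tested on simulated data.

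Values of every library are given for the 4 largest called rises and falls per THZ1 comparison, for differences between lines of at least 1 on the log2 scale, for the 3 largest differences in DMSO each way, and for LDHA, LDHB, SLC2A1, SLC2A3, HIF1A and PKM. From each other list, up to 3 called genes per THZ1 comparison with the largest change and an average log2 CPM of at least 3 could be named. Alternatives were RLE factors, library size alone, mitochondrial mRNA scaling, no filter, DESeq2 1.42.0, a replicate block, the compared groups alone, raw-count shares and leaving out each library. All replicate pairs differed beyond sampling noise, so none was merged. A gene that the naming rule selects is not reported here.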

Additional observations from a re-analysis of the deposited data

Results flagged for a closer look

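For the genes below the change with THZ1 differed between the 2 lines by the edgeR test of the difference (Y79 minus WERI, log2 scale, 3 samples per group). Among the members these were SLC2A1 (-1.19, adjusted p = 7.35e-05), SLC2A3 (-0.93, adjusted p = 0.00125), PFKFB3 (-1.66, adjusted p = 0.0456), LDHA (-0.49, adjusted p = 0.00954) and BNIP3 (-0.51, adjusted p = 0.00663), with a lower value in Y79. GAPDH (0.51, adjusted p = 0.0266), SLC16A1 (0.48, adjusted p = 0.00220) and SLC16A6 (0.58, adjusted p = 0.0460) had a higher value in Y79. SLC2A1, SLC2A3, GAPDH and SLC16A1 were called under all 4 scalings. SLC16A6 was not called with library size alone (adjusted p = 0.149), and under mitochondrial scaling LDHA, BNIP3 and PFKFB3 were not called (adjusted p = 0.194, 0.197 and 0.0922).

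Among the named genes around the pathway, the difference was called with a lower value in Y79 for SLC2A6 (-1.0), PDHB (-1.09), DLAT (-0.37), TIGAR (-0.39), PGM2 (-1.51), GYS1 (-0.53), GBE1 (-0.75), EGLN2 (-0.41), EGLN3 (-1.57) and VEGFA (-0.37). It was called with a higher value in Y79 for ENO3 (0.80), KDM3A (0.37), MLXIPL (0.46) and TXNIP (0.43). Of all tested genes, 8.73% had a higher and 13.2% a lower value in Y79.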

How the results depend on the processing

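With scaling to mitochondrial mRNAs, 0 members were higher and 30 lower in WERI, and 0 and 26 in Y79, by the edgeR test. In WERI the log2 fold changes that turned below 0 were those of HK1 (-1.72), GPI (-0.96), PFKL (-0.84), PFKM (-0.68), PFKFB2 (-1.39), ALDOA (-1.03), TPI1 (-0.81), GAPDH (-0.52), PGK1 (-0.28), PGAM1 (-0.79), ENO1 (-0.96), ENO2 (-0.90), PKM (-0.81), LDHB (-0.99), PDK1 (-0.45), SLC16A3 (-1.44) and BNIP3 (-1.80). In Y79 they were those of HK1 (-1.63), GPI (-0.84), PFKL (-0.31), PFKM (-0.62), PFKP (-1.69), PFKFB2 (-1.24), ALDOA (-0.36), ALDOC (-0.82), TPI1 (-0.52), PGK1 (-0.16), PGAM1 (-0.92), ENO1 (-0.39), ENO2 (-0.55), PKM (-0.27), LDHB (-0.30), PDK1 (-0.076), SLC16A1 (-1.50) and SLC16A3 (-0.74). Over all genes it gave 111 higher and 13328 lower in WERI, 283 and 12188 in Y79, 713 with a lower value in Y79 in the difference between lines, and 2706 higher in Y79 in DMSO, where PFKP was at -0.10. In the difference between lines it put 9 members higher and 2 lower, beside 1778 and 713 of all genes.

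With library size alone, HK1 (-0.27), SLC16A3 (-0.00074) and BNIP3 (-0.36) turned below 0 in WERI and HK1 (-0.49), PFKP (-0.54), PFKFB2 (-0.088) and SLC16A1 (-0.35) in Y79. It gave 2221 and 2175 genes higher in WERI and Y79. In the difference between lines it gave 740 genes a higher value, and 8 members and 2697 genes a lower one. PFKFB3 and ALDOC in WERI turned to 0.072 and 0.0123 with RLE factors and 0.074 and 0.0123 with DESeq2. DESeq2 put 8 members and 1811 genes higher in the difference between lines. Without the low-count filter PFKP was at -0.0060 in Y79. The cause of these changes was not tested. Without mitochondrial and ribosomal protein mRNAs, the members' share was 1.57 times that of DMSO in WERI with THZ1 and 1.85 times in Y79.

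No pairing by replicate number was seen. Correlations of same-numbered deviations ran from -0.04 to 0.00, and those of differently numbered ones from -0.0577 to 0.0785. With 3 samples per group these cannot exclude a weak pairing. In the difference between lines, a replicate block gave 1 member and 864 genes a higher value. It gave 4 members and 1440 genes a lower one. PFKFB3 in WERI was at 0.0122. The block gave 13 members higher and 8 lower in WERI, 17 and 10 in Y79, and 16 and 8 between lines in DMSO. Over all genes it gave 3903 higher and 5316 lower in WERI, 4171 and 5571 in Y79, and 3374 and 3578 between lines in DMSO. The calls it ended were those of HK1 and PFKP in WERI (adjusted p = 0.103 and 0.0776), PDK2 in Y79 (0.0522), PFKL, PFKP and BNIP3 between lines in DMSO (0.0618, 0.111 and 0.0887), and PFKFB3, GAPDH and SLC16A6 in the difference between lines (0.0985, 0.0774 and 0.132).

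Fitted to the compared groups alone, SLC16A1 in Y79 missed the threshold (0.21, adjusted p = 0.0545).

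Leaving out each library gave 13 to 15 members higher and 8 to 9 lower in WERI, 15 to 17 and 10 to 11 in Y79, and 18 to 20 and 8 between lines in DMSO. Over all genes it gave 3651 to 3781 higher and 5134 to 5366 lower in WERI, and 4048 to 4387 and 5449 to 6001 in Y79. Between lines in DMSO it gave 4265 to 4413 genes higher and 4454 to 4510 lower. In the difference between lines it gave 1 to 9 higher and 4 to 7 lower, and over all genes 890 to 2161 and 1437 to 3031, the upper ends without Y79 THZ1 replicate 2. PFKFB3 (-0.42 to 0.31) and ALDOC (-0.28 to 0.095) in WERI and HK1 (-0.0172 to 0.10) and PFKP in Y79 (-0.0163 to 0.025) changed sign.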
